A study of Homo sapiens with 8 samples.

Results

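Notch signalling genes were followed across 8 RNA-seq libraries of HMEC-1. This is a human line made by immortalising microvascular endothelial cells of the skin with a viral T antigen. The 10 genes described were picked by symbol from the 16153 genes of the deposited table, and all 10 were present: the receptors NOTCH1, NOTCH2, NOTCH3 and NOTCH4, the ligands DLL4, JAG1 and JAG2, and the target genes HEY1, HEY2 and HES1. Cells of every group were grown on plastic coverslips coated with gelatin, in medium with serum, hydrocortisone and EGF, inside automated culture units. In 3 libraries (space_microg) the cells were weightless in an incubator on the International Space Station. In 2 libraries (space_1g) they flew in the same incubator but inside its centrifuge, which gave 1 g. The other 3 libraries (ground) came from units run at the same time in a facility in the home laboratory. The flown cells were fixed in space at the end of the mission and brought back cold before RNA was extracted. The labels give the same storage temperature for all 8 libraries, those of ground included. HMEC-1 is a single immortalised line, and nothing in the labels tells separate cultures from repeats of one, so every p-value measures only a spread between libraries that may be technical. Flight groups also differed from ground in launch and return, which cannot be told apart from the stay in orbit.

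Notch receptors are single-pass membrane proteins that are switched on by ligands on a neighbouring cell. Binding lets ADAM proteases and then gamma-secretase cut the receptor, and the freed intracellular domain joins the DNA-binding protein RBPJ and a Mastermind coactivator to turn on genes of the HES and HEY families. In growing vessels DLL4 on the leading tip cell activates NOTCH1 on its neighbours and holds them as stalk cells, while JAG1 works against DLL4 where Fringe enzymes have glycosylated the receptor. NOTCH4 is largely a receptor of endothelium, and NOTCH3 is best known from mural cells, the pericytes and smooth muscle around vessels.

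The letters RBPJ binds, TGGGAA, were searched on both strands in the stretch from 250 bases before to 50 bases after the start of each gene, in RefSeq's promoter table (GRCh38.p14), which held 9 of the 10 genes and not HEY1. They occurred in 2 of the 9, HES1 and HEY2, both target genes, and in 24.3% of all 27305 promoters of that table (21.6% of the 10198 that belong to genes of the deposited table). The 2 promoters are printed because they belong to 2 of the 3 target genes whose RNA is given further on. Bases from 250 before to 20 after the start are shown 5′ to 3′ on the gene's strand, with capitals on each match and on the G that extends it to GTGGGAA where present. The lines give HES1 at chr3:194135898-194136167 and HEY2 at chr6:125749382-125749651, both on the plus strand.
HES1: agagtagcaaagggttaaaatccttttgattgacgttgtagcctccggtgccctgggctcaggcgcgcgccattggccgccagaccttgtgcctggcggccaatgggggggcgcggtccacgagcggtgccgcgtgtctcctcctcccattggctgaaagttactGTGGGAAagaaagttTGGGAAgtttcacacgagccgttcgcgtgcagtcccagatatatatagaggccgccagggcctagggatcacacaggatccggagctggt
HEY2: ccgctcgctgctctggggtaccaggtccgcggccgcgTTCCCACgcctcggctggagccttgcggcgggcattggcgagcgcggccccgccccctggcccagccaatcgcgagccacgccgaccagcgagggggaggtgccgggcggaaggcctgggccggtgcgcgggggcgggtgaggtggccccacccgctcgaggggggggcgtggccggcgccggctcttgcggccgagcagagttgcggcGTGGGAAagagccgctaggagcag
In HES1 the matches began 84 and 70 bases before the start, both on the gene's strand, and the first was part of GTGGGAA. In HEY2 they lay 213 bases before the start, on the opposite strand, and 3 bases before it, on the gene's strand, and both were part of GTGGGAA. These starts are those of RefSeq's table. In the GENCODE annotation, used for the gene positions below, HEY2 starts at chr6:125747664, before its printed stretch. HES1 starts there at chr3:194136145, within its stretch. This longer form, which contains the shorter one, occurs in 6.28% of all promoters. The E box CACGTG, a site of HES and HEY proteins among others, was in 0 of the 9 promoters against 7.43% of all, and the AP-1 site TGANTCA was in that of NOTCH4 alone, 18 bases before the start, against 7.76%. A match is a string of letters and was not tested for binding.

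The 8 libraries held 24248964 to 35388757 reads assigned to genes, so that 1 read was worth 0.0285 to 0.0398 CPM (read counts scaled to library size by the authors) and 3 reads 0.0855 to 0.12 CPM. Of 13 endothelial markers all were in the table and 12 exceeded 1 CPM in every library, with a summed level of 1544 to 1657 CPM in space_1g, 1419 to 2061 in space_microg and 1936 to 2381 in ground. Of 8 smooth muscle and pericyte markers 6 were listed, without MYH11 and CNN1, and of 6 leukocyte markers only CD14, at 1.04 to 2.88 CPM. Of 7 fibroblast markers the 3 collagen genes COL1A1, COL1A2 and COL3A1 were listed, with a summed level of 101 to 276 CPM. Of 7 epithelial markers the 2 keratins KRT8 and KRT18 were, at 254 to 368 CPM. On the main axis of variation (61.9% of the variance), space_1g replicate 1 and ground replicate 3 stood apart, with scores of -60.7 and -64.7 where the other 6 had -1.51 to 31.1. These 2 libraries are named wherever a Notch gene follows them. In them summed interferon-induced genes reached 3078 and 3588 CPM against 275 to 1343 elsewhere, and summed mitotic genes 1344 and 1700 CPM against 3171 to 3863.

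Per kilobase of exon, NOTCH2 was the most abundant of the 10 RNAs in 5 of 8 libraries, NOTCH1 in 2 ground libraries and JAG1 in ground replicate 3, and HEY2 was the least abundant. In ground NOTCH1 and NOTCH2 were level, at means of 26.9 CPM per kb each. The length used was that of all annotated exons of a gene joined, 16.8 kb for NOTCH2 and 10.4 kb for NOTCH1. The order depends on it: before this division the ground means were 452 CPM for NOTCH2 and 279 CPM for NOTCH1. The mean over the 8 libraries was 25.6 ± 2.81 CPM per kb (SD, n = 8) for NOTCH2, 22.1 ± 5.98 for NOTCH1, 19.1 ± 7.79 for JAG1 and 11.5 ± 2.38 for HES1. It was 7.64 ± 5.08 for JAG2, 6.62 ± 4.69 for NOTCH3 and 2.27 ± 0.918 for NOTCH4. The lowest were DLL4 at 1.07 ± 0.358, HEY1 at 0.944 ± 0.578 and HEY2 at 0.242 ± 0.156 CPM per kb. Neighbours in this order overlapped in their ranges over libraries, except that NOTCH4 lay above DLL4 in 8 of 8 libraries with no overlap. HEY1 also lay above HEY2 in 8 of 8 libraries, but their ranges overlapped.

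Among receptors, NOTCH2 and NOTCH1 together made up most of the RNA. NOTCH2 took 40.7% to 60.6% of the summed receptor CPM per kb, NOTCH1 28.4% to 48.3% and NOTCH4 2.44% to 8.01%. The NOTCH3 share was 20.0% in space_1g replicate 1 and 19.0% in ground replicate 3, against 4.99% to 11.9% in the other 6 libraries. Among ligands JAG1 took 60.8% to 78.1%, JAG2 18.0% to 37.1% and DLL4 2.10% to 6.04%. JAG1, not DLL4, was thus the main ligand RNA of these cells in every library, and the 2 highest JAG2 shares, 37.1% and 32.1%, were those of space_1g replicate 1 and ground replicate 3.

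**Figure D1:**
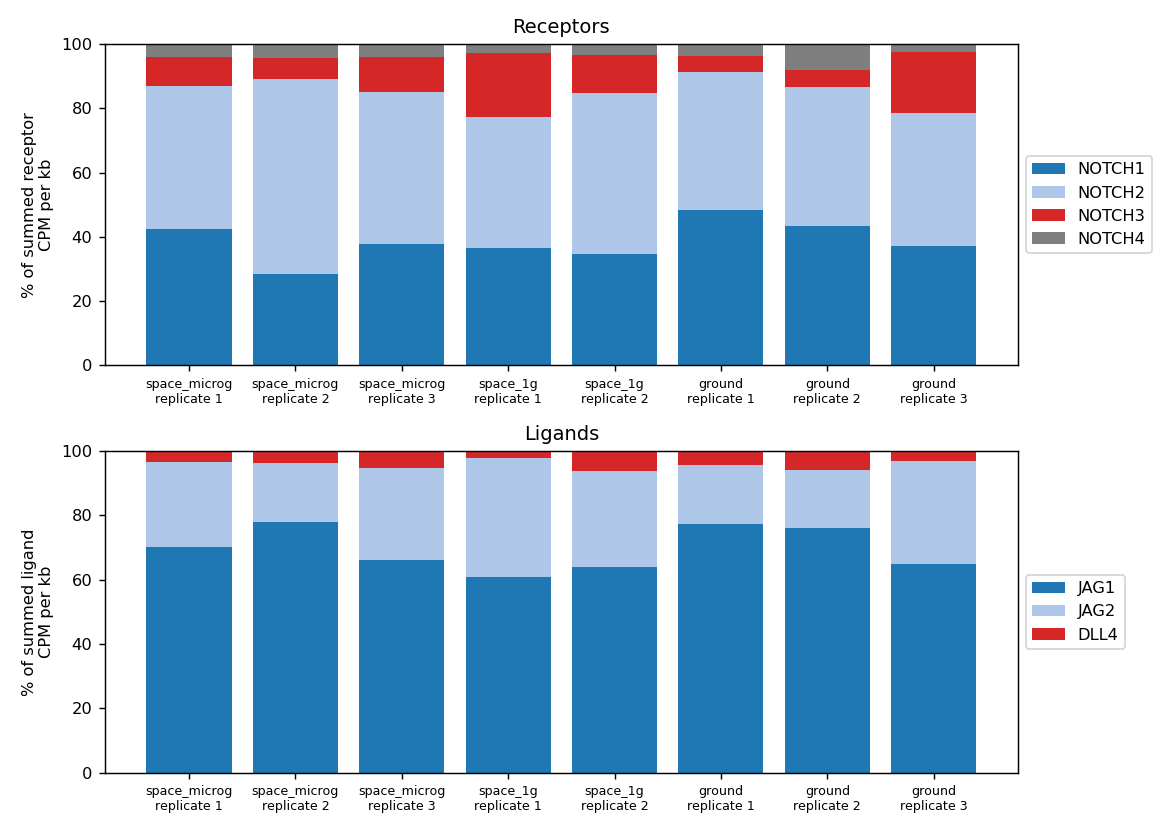
Share of each receptor (upper bars) and each ligand (lower bars) in the summed CPM per kilobase of exon of its class, in percent, for each of the 8 libraries. NOTCH3 takes 20.0% and 19.0% in space_1g replicate 1 and ground replicate 3 and at most 11.9% elsewhere, and JAG1 takes at least 60.8% of the ligand RNA throughout.

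Compared with ground, weightless cells carried less RNA of most of the 10 genes on average, but limma called no gene of the table in any comparison. The ligands DLL4 and JAG1 and the receptor NOTCH1 were among the lower ones. Differences were fitted with limma on log2(CPM + 1) over 16103 genes and all 8 libraries, and a gene counted as called at a Benjamini-Hochberg adjusted p under 0.05. By this rule 0 of the 10 genes and 0.0% of all genes were called in space_microg against ground, in space_1g against ground, in space_microg against space_1g, and in flight (the mean of both flight groups) against ground. The smallest adjusted p of a Notch gene in these comparisons was 0.866, 1.00, 0.912 and 1.00 in that order. All 4 comparisons were made from the same 8 libraries, and the 3 against ground share the ground libraries, so they are not independent of each other.

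Without adjustment, p was under 0.05 for NOTCH1, DLL4 and JAG1 in space_microg against ground, all lower, where 2.27% of all genes were lower and 2.05% higher by that rule. DLL4 alone kept it when space_microg replicate 2, space_microg replicate 3, ground replicate 1 or ground replicate 3 was left out, and NOTCH1 missed it with edgeR and with the GC trend removed. It was under 0.05 for DLL4 and JAG1 in flight against ground, both lower, against 1.75% of genes lower and 1.11% higher. There JAG1 missed it with edgeR and without any 1 of space_microg replicates 2 and 3, space_1g replicate 2 and ground replicates 1 and 3. NOTCH1, lower, gained it there with a block for replicate number, with the GC trend removed and without space_microg replicate 1. HEY2, lower, gained it without ground replicate 2 in both comparisons. Without ground replicate 3, NOTCH4 (lower) and NOTCH3 (higher, 1.03) gained it in flight against ground. Without both libraries that stand apart NOTCH3 was 0.76 there. As reported, none of the 10 passed it in space_1g against ground, where 0.826% of genes were lower and 0.72% higher. The same held in space_microg against space_1g, where 0.621% were lower and 0.696% higher. In space_1g against ground DLL4, lower, passed with a pseudocount of 4 and with limma without the trend. NOTCH3, higher, passed there with the replicate block, and with NOTCH4, lower, without ground replicate 3. In space_microg against space_1g NOTCH3 and JAG2, both lower, passed with the replicate block. Over all genes limma gave 696, 249, 212 and 460 such genes in the 4 comparisons, edgeR on the recovered reads 741, 227, 221 and 463 with 0 called, and DESeq2 871, 327, 339 and 596 with 3, 0, 0 and 8 called, none of them a Notch gene. In space_microg against ground 9 of the 10 differences were below 0, with a median of -0.54, beside 53.0% of all genes and a median of -0.022. Without ground replicate 3 and space_1g replicate 1 it was 8 of 10 with a median of -0.25. HEY2 counts in these tallies although it passed the filter on low values through its ground libraries alone, and without it 8 of 9 were below 0 (median -0.67). In flight against ground 8 of 10 were below 0 with a median of -0.41, beside 50.9% of all genes and a median of -0.0043, and without HEY2 7 of 9 (median -0.45).

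**Figure D2:**
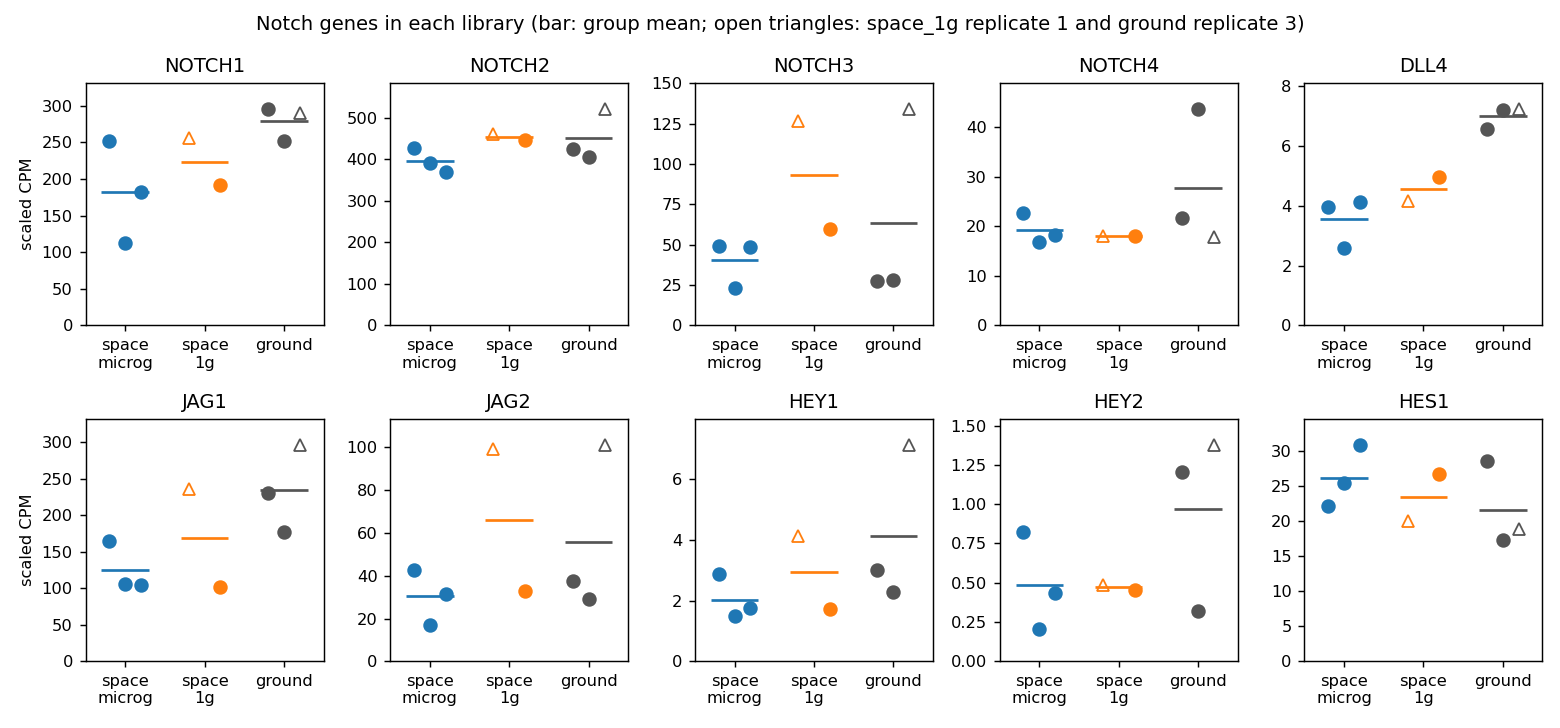
Scaled CPM of each of the 10 genes in each library (points) with the group mean (bar), on linear axes that start at 0. Open triangles are space_1g replicate 1 and ground replicate 3. The 5 flight libraries of DLL4 sit between 2.60 and 4.95, below the 3 ground libraries at 6.55 to 7.23, whereas NOTCH3 and JAG2 are highest in the 2 libraries drawn as triangles.

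**Figure D3:**
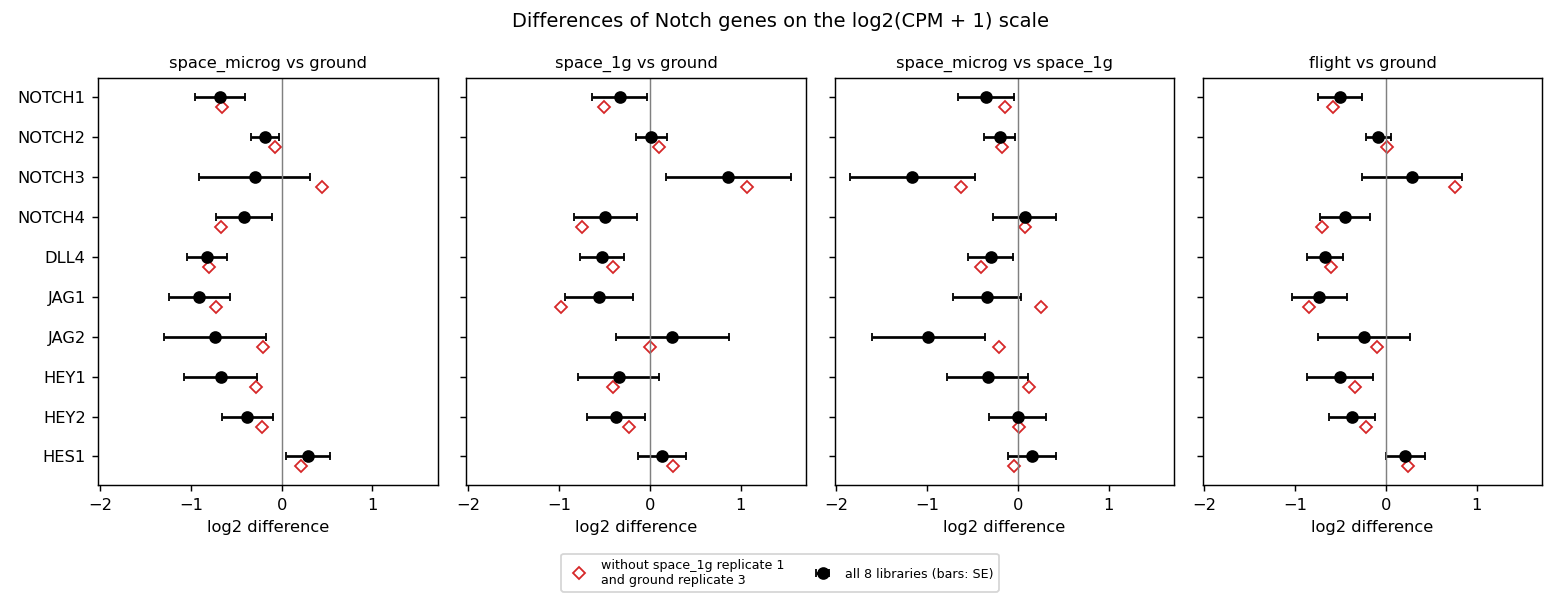
Difference of each gene in each of the 4 comparisons, as log2(CPM + 1) of the first group minus the second, with the standard error from limma (black, all 8 libraries) and the value without space_1g replicate 1 and ground replicate 3 (open red). DLL4 lies at -0.82 and -0.80 in space_microg against ground, while NOTCH3 goes from -0.30 to 0.45.

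Of the 3 ligands DLL4, JAG1 and JAG2, it was DLL4 whose flight and ground libraries separated. Those of a further ligand, DLL1, did too, but DLL1 was picked after its values were seen to follow DLL4. DLL4, the ligand of tip cells and arteries (chr15:40929333-40939073, GRCh38), measured 3.96, 2.60 and 4.13 CPM in the 3 space_microg libraries, 4.16 and 4.95 in space_1g, and 6.55, 7.17 and 7.23 in ground. Every flight library lay below every ground library. The group means were 3.56 ± 0.839 (SD, n = 3), 4.55 ± 0.556 (n = 2) and 6.99 ± 0.375 CPM (n = 3), and the flight mean of 3.96 was 43.3% lower than that of ground. Such a gap, all flight libraries below all ground libraries, was found for 1 of the 10 genes and for 2.23% of all genes, with 1.57% the other way. The difference was -0.68 ± 0.20 (SE) on the log2(CPM + 1) scale for flight against ground (limma adjusted p = 1.00), -0.82 ± 0.22 for space_microg (adjusted p = 0.866) and -0.53 ± 0.25 for space_1g (adjusted p = 1.00). In space_microg against ground 40 of the 16103 genes had a smaller p than DLL4, and in flight against ground 52 had. DLL4 rested on 89 to 236 reads per library. The pseudocount of 1 narrows the fold of so low a gene: on the recovered reads edgeR gave -0.94 in space_microg against ground, and a pseudocount of 4 gave -0.54. Leaving out single libraries gave -0.92 to -0.66, and leaving out both libraries that stand apart gave -0.80.

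JAG1, the main ligand RNA here and the one that opposes DLL4 in sprouting (chr20:10637684-10673999), measured 164.5, 106.1 and 104.8 CPM in space_microg, 235.6 and 102.3 in space_1g, and 231.0, 177.3 and 297.0 in ground. The space_microg libraries lay below all ground libraries, while space_1g replicate 1 lay among the ground libraries. The means were 125 ± 34.1, 169 ± 94.2 and 235 ± 60.0 CPM. The difference was -0.91 ± 0.33 for space_microg against ground (limma adjusted p = 0.866; 297 genes had a smaller p) and -0.73 ± 0.30 for flight (adjusted p = 1.00; 332 genes), the latter -0.44 without space_1g replicate 2. DLL4 and JAG1 were the 2 of 10 genes without overlap between space_microg and ground, both lower, against 6.53% of all genes lower and 7.88% higher. For space_1g against ground JAG1 differed by -0.56 ± 0.37 (limma adjusted p = 1.00), which became -1.16 without space_1g replicate 1 and 0.03 without space_1g replicate 2. The antisense transcript AL050403.2 shares 79 exon bases with JAG1, and the strand setting of the counting is not given.

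JAG2, the second Jagged ligand (chr14:105140981-105168824), followed the libraries that stand apart and not the groups. It measured 42.6, 17.0 and 31.6 CPM in space_microg, 99.1 and 33.0 in space_1g, and 37.6, 28.9 and 101.1 in ground. Space_1g replicate 1 and ground replicate 3 lay far above the other 6 libraries, and the 3 groups overlapped. The difference of space_microg from ground was -0.73 ± 0.56 (limma adjusted p = 0.866) with all libraries and -0.21 without the 2 that stand apart. A transcript on the same strand, AL512356.1, shares 469 exon bases with JAG2, so their reads may be mixed.

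All 4 receptors were lower in weightless cells than in ground on average, but each overlapped with ground. NOTCH1, the receptor that answers DLL4 in stalk cells and arteries (chr9:136494433-136545786), measured 252.4, 113.0 and 182.5 CPM in space_microg, 255.2 and 191.7 in space_1g, and 296.0, 251.8 and 290.2 in ground. Space_microg replicate 1 and space_1g replicate 1 lay just above the lowest ground library, and the other 3 flight libraries lay below all of ground. The means were 183 ± 69.7, 223 ± 44.9 and 279 ± 24.0 CPM. The difference was -0.68 ± 0.27 for space_microg against ground (limma adjusted p = 0.866; 459 genes had a smaller p), -0.33 ± 0.31 for space_1g and -0.51 ± 0.25 for flight (adjusted p = 1.00 for both). In space_microg against ground it was -0.37 without space_microg replicate 2, and -0.40 with trends in GC content and transcript length removed from every library. Those trends accounted for 53.2% of how that library departed from the average library and for 1.83% to 21.1% in the others.

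NOTCH2, the receptor with the highest mean (chr1:119911553-120069626), varied least relative to its mean. It measured 427.1, 390.7 and 368.6 CPM in space_microg, 460.2 and 447.0 in space_1g, and 426.0, 406.4 and 522.1 in ground. Its differences from ground were -0.18 ± 0.15 in space_microg and 0.02 ± 0.17 in space_1g, within the spread of the ground libraries. Space_1g replicate 1 and ground replicate 3 were its highest libraries, and the difference in space_microg was -0.08 without ground replicate 3 and -0.02 with the GC trend removed. A near-identical partial copy, NOTCH2NL, is listed at 11.3 to 21.1 CPM, and reads that fit both could have been lost or split.

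NOTCH3, the receptor best known from mural cells (chr19:15159038-15200981), had the widest spread, relative to its mean, of the 4 receptors in space_1g and in ground. It measured 49.3, 23.3 and 48.5 CPM in space_microg, 126.7 and 59.5 in space_1g, and 27.7, 27.9 and 134.3 in ground. The 2 values above 100 came from space_1g replicate 1 and ground replicate 3, in which the summed smooth muscle and pericyte markers were also highest, at 340 and 425 CPM against 169 to 241 in the other 6. CSPG4 alone made up 259 and 326 CPM of these sums. TAGLN was highest in ground replicate 3 (52.6 CPM), but space_1g replicate 1 (36.2 CPM) lay just below space_microg replicate 1 (36.6 CPM). ACTA2 (20.4 and 20.5 CPM against 8.85 to 17.6) and the scarce DES were highest in both libraries that stand apart. The pericyte marker PDGFRB was instead lowest in both, at 8.42 and 14.5 CPM against 21.0 to 37.7, and RGS5 was within the range of the others (13.6 and 9.47 against 9.39 to 17.0). The defining smooth muscle markers MYH11 and CNN1 are not in the table, and the part of such cells in the NOTCH3 values was not tested. The difference from ground was -0.30 ± 0.61 in space_microg and 0.87 ± 0.69 in space_1g (limma adjusted p = 0.938 and 1.00). Without both libraries it was 0.45 and 1.07, the latter resting on 1 space_1g library. The sign in space_microg thus turned, as it did without space_microg replicate 2 (0.05). The 4 remaining flight libraries then included 1, space_microg replicate 2, below the 2 remaining ground libraries.

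NOTCH4, the receptor of endothelium (chr6:32194843-32224067), was even across libraries with 1 exception. It measured 22.6, 16.7 and 18.2 CPM in space_microg, 18.1 and 17.9 in space_1g, and 21.6, 43.7 and 17.9 in ground. The ground mean of 27.7 ± 13.9 CPM was raised by ground replicate 2, and the difference of flight from ground, -0.45 ± 0.28 (limma adjusted p = 1.00), became -0.08 without that library and -0.70 without the 2 libraries that stand apart. NOTCH4 shares 98 exon bases with GPSM3 on the same strand.

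Of the target genes, none separated the groups, and the 3 did not move as one. HES1, the target expressed most and a repressor of transcription (chr3:194136145-194138732), measured 22.1, 25.4 and 30.9 CPM in space_microg, 20.0 and 26.7 in space_1g, and 28.5, 17.2 and 18.8 in ground. Its flight libraries were on average higher, opposite in sign to the ligands, but overlapped with ground. The difference was 0.29 ± 0.24 for space_microg against ground (limma adjusted p = 0.866), 0.13 ± 0.27 for space_1g and 0.21 ± 0.21 for flight. Leaving out 1 library gave 0.15 (without ground replicate 2) to 0.50 (without ground replicate 1) in space_microg against ground, and 0.08 to 0.42 in flight against ground without the same libraries.

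HEY1, a repressor with a basic helix-loop-helix domain that Notch induces in endothelium (chr8:79764010-79767863), measured 2.88, 1.49 and 1.74 CPM in space_microg, 4.13 and 1.74 in space_1g, and 3.02, 2.27 and 7.14 in ground. Its 2 highest values were again those of the libraries that stand apart. The difference of space_microg from ground was -0.67 ± 0.40 (limma adjusted p = 0.866) and became -0.28 without them. HEY2, its relative that marks arterial endothelium (chr6:125747664-125761269), was near the limit of detection at 0.826, 0.204 and 0.436 CPM in space_microg, 0.488 and 0.453 in space_1g, and 1.20, 0.319 and 1.38 in ground, or 7 to 45 reads. It reached the 1 CPM of the filter in ground replicates 1 and 3 only, so it was tested because of its higher ground values, and its difference of -0.37 ± 0.26 in flight against ground (adjusted p = 1.00) is no support for a direction.

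Between weightless cells and those in the centrifuge, the widest differences were those of NOTCH3 and JAG2, both high in space_1g replicate 1. NOTCH2, NOTCH3 and DLL4 were lower in all 3 space_microg libraries than in both space_1g libraries, 3 of 10 genes against 6.91% of all genes lower and 7.24% higher. The differences were -0.20 ± 0.17 for NOTCH2, -1.16 ± 0.69 for NOTCH3 and -0.30 ± 0.25 for DLL4 (limma adjusted p = 0.912 for each). With the trend in GC content and length removed they were -0.06 for NOTCH2, -0.84 for NOTCH3 and -0.09 for DLL4, and DLL4 was -0.14 without space_microg replicate 2. NOTCH1 differed by -0.35 ± 0.31, and by -0.02 with that trend removed. Without space_1g replicate 1 and ground replicate 3, only 1 space_1g library was left to compare. The NOTCH3 difference was then -0.62, and that of JAG2 went from -0.99 ± 0.63 to -0.21. Those of JAG1, HEY1 and HES1 turned sign, from -0.34, -0.33 and 0.16 to 0.26, 0.12 and -0.04. In space_1g against ground 1 of the 10 genes, DLL4, did not overlap, against 5.73% of all genes lower and 4.94% higher.

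The 2 libraries that stand apart were both above the other 6 for 5 of the 10 genes (NOTCH2, NOTCH3, JAG1, JAG2 and HEY1) and both below for 0, beside 23.6% and 21.5% of all genes. DLL4 was not among the 5: ground replicate 3 held 7.23 CPM and space_1g replicate 1 held 4.16 CPM, the lower of the 2 space_1g values. The same libraries had the steepest rise of level with GC content over all genes, 0.220 and 0.272 log2 units per 10 points of GC against -0.278 to 0.00135 in the other 6. Over the 8 libraries the correlation of a gene's level with this slope was 0.99 for JAG2 (64.0% GC), 0.92 for NOTCH3 (63.1% GC) and 0.90 for HEY1 (47.3% GC). It was 0.79 for NOTCH2, 0.76 for JAG1, 0.73 for NOTCH1, 0.62 for HEY2, 0.47 for DLL4, -0.17 for NOTCH4 and -0.44 for HES1. These are descriptions over libraries that share the slope, and the part of GC content in the Notch values was not tested. With the GC and length trend removed from each library, space_microg differed from ground by -0.65 in DLL4, -0.79 in JAG1 and -0.40 in NOTCH1. The other receptors came closer to 0, with -0.02 for NOTCH2, -0.02 for NOTCH3 and -0.15 for NOTCH4. The median over the 4 receptors went from -0.36 to -0.09. The remaining genes stood at -0.49 (JAG2), -0.71 (HEY1), -0.42 (HEY2) and 0.27 (HES1).

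**Figure D4:**
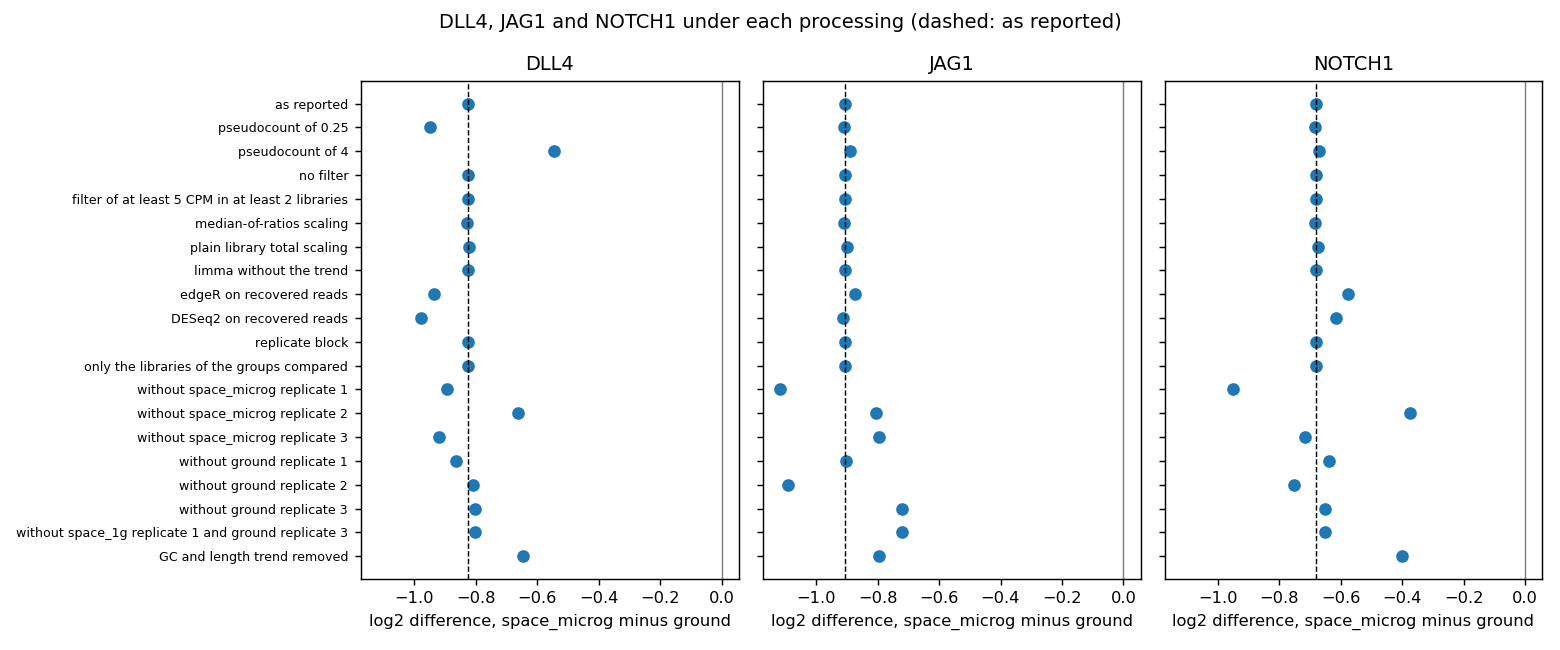
Difference of DLL4, JAG1 and NOTCH1 between space_microg and ground (log2 scale, horizontal) under each way of processing (vertical), with the value as reported as a dashed line. All points lie below 0, DLL4 between -0.98 and -0.54, JAG1 between -1.12 and -0.72 and NOTCH1 between -0.95 and -0.37.

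Beyond the 10 genes, 85 of 92 listed genes that make, modify, carry out or receive Notch signals were measured, and 0 of them were called by limma in any comparison. In flight against ground 5 of the 85 had an unadjusted p under 0.05, all lower (DLL1, DTX4, KAT2A, KDR and TLE2), beside 1.75% of all genes lower and 1.11% higher. The median difference over the 85 was -0.097, with 53 below 0, beside -0.0043 over all genes. Without space_1g replicate 1 and ground replicate 3 the counts at that p were 13 lower and 4 higher of 85, with 0 called, where 6.24% of all genes were lower and 4.81% higher, and the median was -0.0059. DLL1, the other Delta ligand that activates Notch, is named because its values were seen to follow those of DLL4, and its mean is below the 5 CPM asked of the other named genes. It measured 2.16, 1.46 and 2.65 CPM in space_microg, 1.82 and 1.51 in space_1g, and 4.26, 2.91 and 3.28 in ground, so that all flight libraries lay below all ground libraries (-0.64 ± 0.21, limma adjusted p = 1.00). Such a gap was found for 2.23% of all genes. As DLL1 was picked for following DLL4, it lends DLL4 no support. The other measured gene of its list differed by 0.13.

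None of the enzymes that prepare and cut the receptor was called. Of 9 genes of receptor cleavage 5 were below 0 in flight against ground with a median of -0.05, and the 3 with the smallest p were NCSTN, a gamma-secretase subunit, at -0.21 ± 0.14, PSENEN, another subunit, at 0.20 ± 0.20 and FURIN, which matures the receptor, at -0.18 ± 0.19. Of 6 glycosylation genes 5 were below 0 (median -0.13). LFNG, the Fringe that favours DLL4 over JAG1, averaged 13.3 ± 3.29, 21.6 ± 13.1 and 27.2 ± 14.3 CPM in space_microg, space_1g and ground (flight against ground -0.61 ± 0.38, space_microg against ground -0.89 ± 0.42), while MFNG stood at -0.25 ± 0.22 and EOGT at 0.14 ± 0.15. Of 7 genes for ligand endocytosis 3 were below 0 (median 0.01), among them MIB2 at -0.17 ± 0.45 and EPN2 at -0.05 ± 0.11, with the ligand-activating ubiquitin ligase MIB1 at 0.22 ± 0.20. LFNG (30.8 and 43.4 CPM) and MIB2 (128 and 144 CPM) were highest in space_1g replicate 1 and ground replicate 3. MFNG, EOGT and MIB1 were lowest in these libraries that stand apart.

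In the nuclear complex 7 of 9 genes were below 0 in flight against ground (median -0.15). The acetyltransferase KAT2A averaged 40.9 ± 3.07 CPM in space_microg, 55.1 ± 8.90 in space_1g and 64.1 ± 5.75 in ground, and differed by -0.43 ± 0.14 (limma adjusted p = 1.00), beside -0.27 ± 0.14 for the acetyltransferase CREBBP and -0.14 ± 0.11 for the coactivator MAML1. Of 14 genes listed with the corepressors 8 were below 0 (median -0.07). The Groucho-type corepressors TLE2 and TLE1 stood at -0.65 ± 0.25 and -0.50 ± 0.23 (limma adjusted p = 1.00 for both). KCTD10, placed on this list by hand and not itself shown to be a corepressor here, stood at 0.23 ± 0.12. Of 12 genes of receptor turnover 7 were below 0 (median -0.01). The Deltex-family ubiquitin ligase DTX4 averaged 19.5 ± 3.88, 19.1 ± 3.56 and 30.5 ± 5.10 CPM, with no overlap between flight and ground (-0.63 ± 0.19, adjusted p = 1.00). MAML1 and NUMB, with smaller differences, also lay below ground in every flight library, as did 2.23% of all genes. The Notch inhibitor NUMB stood at -0.11 ± 0.11 and CCNC, the cyclin partner of a kinase that marks the intracellular domain for destruction, at 0.48 ± 0.26. In space_1g replicate 1 and ground replicate 3 TLE1 was highest (51.2 and 66.0 CPM) and CCNC lowest (34.6 and 33.3 CPM).

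Of 15 other reported Notch targets 6 were below 0 in flight against ground (median 0.07), and the 3 with the smallest p were ACTA2 at 0.48 ± 0.27, MYC at -0.31 ± 0.24 and UNC5B at -0.56 ± 0.50. All 15 were below 0 in space_microg against space_1g (median -0.47, limma called 0), and 8 of 15 were (median -0.03) without the 2 libraries that stand apart. Of 11 partners of Notch in tip and stalk cell choice, all were below 0 in flight against ground (median -0.33, and -0.42 without the 2 libraries), and limma called 0. The VEGF receptor KDR, which Notch holds down in stalk cells, averaged 127 ± 17.8, 128 ± 41.2 and 178 ± 15.0 CPM with no overlap between flight and ground (-0.50 ± 0.18, adjusted p = 1.00). Such a gap, with flight lower, was found for 2.23% of all genes. The decoy VEGF receptor FLT1 stood at -0.81 ± 0.41 and the venous receptor EPHB4 at -0.41 ± 0.22. FLT1 (67.2 and 93.7 CPM), UNC5B (216 and 307) and ACTA2 (20.4 and 20.5) were highest in space_1g replicate 1 and ground replicate 3. The endothelial markers, among which KDR is counted, had a summed level of 1419 to 2061 CPM in flight and 1936 to 2381 CPM in ground. In bulk RNA fewer cells of a type and less RNA per cell cannot be told apart, and the part of the endothelial level in the DLL4 values was not tested.

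Over the 8 libraries, the genes whose log2(CPM + 1) followed DLL4 most closely, among 11393 genes with a mean of at least 5 CPM, were TMEM51 (Pearson r = 0.96), GALNS (0.96), SHROOM1 (0.95), HTRA3 (0.95) and AFAP1L1 (0.95). For JAG1 they were CHST11 (0.98), PPP1R3C (0.98), COL6A3 (0.97), SLC5A6 (0.97) and ANPEP (0.97), and for HES1 ATP23 (0.96), CCDC167 (0.95), COX16 (0.95), DCUN1D5 (0.95) and CCT2 (0.94). Within the 10 genes, HEY1 followed JAG1 (0.91) and JAG2 (0.91), JAG2 followed NOTCH3 (0.91), and HES1 had a negative correlation with each of the other 9, from -0.60 with JAG1 to -0.07 with HEY2. DLL4 was closest to NOTCH1 (0.80) and JAG1 (0.63). These values describe 8 libraries that share groups, depth and the 2 libraries that stand apart, and each named gene is among the 5 closest of 11393.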

How the data were processed

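Per the labels' protocols, libraries were stranded and made from total RNA freed of ribosomal RNA. The deposited table holds 1 normalised signal value per gene and library, called CPM per the labels, which is a read count scaled to library size. The submitters' processing notes list STAR 2.5.3, featureCounts, edgeR, CASAVA 1.8.2 and FastQC with the builds hg38 and GRCh38, but no settings. Dividing each value by that of 1 read gave whole numbers for 100% of values (tolerance 1e-06). This gave the 24248964 to 35388757 reads per library, and the depth limits genes as low as HEY2. The scaling matched edgeR's TMM factors. No columns were left out (0).

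Genes with at least 1 CPM in at least 2 libraries (16103 of 16153) were tested with limma 3.58.1 in R 4.3.3, with a mean trend, on log2(CPM + 1), all 8 libraries in 1 fit, Benjamini-Hochberg adjusted over all genes at 0.05. Alternatives used other pseudocounts, filters and scalings, edgeR 4.0.16 and DESeq2 1.42.0 on the recovered reads, a block for replicate number, and left-out libraries. Leaving out the 2 libraries that stand apart, and removing the trend with GC content and length (86.1% of the genes tested had both), were chosen after seeing the data. The fit was also run on simulated counts with planted differences. These were drawn independently for each gene, without shared departures of single libraries or a GC trend. The run therefore cannot show how the fit performs on these libraries. Positions, exon lengths and GC content came from GENCODE (GRCh38), which held 13895 of the 16153 symbols.

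The 10 genes and all lists were chosen with earlier results of these data known. Named genes are the 10, the 3 genes of each pathway list with the smallest p in flight against ground at a mean of at least 5 CPM, and the 5 closest to DLL4, JAG1 and HES1 by correlation. The other ligands list gave DLL1 after its values were seen.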

Additional observations from a re-analysis of the deposited data

How the results depend on the processing

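Over the 742 alternative fits of the 10 genes in 4 comparisons, 0 passed the threshold, 705 had the same direction and 37 the opposite one, in 14 of 40 results. DLL4 and NOTCH1 were below 0 in all 4 comparisons, and JAG1 in space_microg and in flight against ground, under every setting that gave a value, but in space_microg against space_1g they came close to 0, NOTCH1 at -0.02 and DLL4 at -0.09 with the GC and length trend removed. Both other scalings turned no sign. The smallest adjusted p of a Notch gene over all settings was 0.290, 0.590, 0.322 and 0.301 in space_microg against ground, space_1g against ground, space_microg against space_1g and flight against ground. The strictest filter, 5 CPM, gave no value for HEY1 and HEY2.

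DESeq2 called 3 genes in space_microg against ground and 8 in flight against ground, where limma called 0, and turned NOTCH2 in space_1g against ground to -0.00050. In flight against ground NOTCH3 was -0.016 with edgeR and -0.052 with DESeq2, and NOTCH2 was 0.0072 with the GC and length trend removed and 0.014 without both libraries that stand apart. Without these 2, NOTCH3 in space_microg against ground was 0.45, and in space_microg against space_1g JAG1 was 0.26, HEY1 0.12, HEY2 0.014 and HES1 -0.043. HEY2 in that comparison was 0.0036 with a pseudocount of 4, 0.079 with edgeR and 0.062 with DESeq2. The cause of these turns was not tested.

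Leaving out 1 library at a time gave -0.67 to 0.45 for NOTCH3 in space_microg against ground. In space_1g against ground it gave -0.056 to 0.12 for NOTCH2, -1.16 to 0.034 for JAG1, -0.53 to 1.03 for JAG2, -0.80 to 0.11 for HEY1 and -0.066 to 0.34 for HES1. In space_microg against space_1g it gave -0.043 to 0.16 for NOTCH4, -0.94 to 0.26 for JAG1, -0.78 to 0.12 for HEY1, -0.16 to 0.14 for HEY2 and -0.043 to 0.36 for HES1. In flight against ground it gave -0.16 to 0.024 for NOTCH2, -0.090 to 1.03 for NOTCH3 and -0.63 to 0.29 for JAG2. Where a group of 2 lost a library, the lone one was assumed to vary like the others. The number of genes at an unadjusted p under 0.05 ran from 253 to 2032, 84 to 1327, 33 to 2421 and 210 to 1780 in the 4 comparisons.

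With the replicate block 0 genes were called in each comparison, 1013, 759, 850 and 874 had an unadjusted p under 0.05, and DLL4 differed by -0.82 in space_microg against ground and -0.65 in flight against ground. Same-numbered libraries deviated from their group means with correlations from -0.68 to 0.68. In a group of 2, as space_1g is, the deviations mirror each other. These values therefore cannot tell whether the numbers pair the libraries.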
